A study of Triticum aestivum and Triticum urartu with 56 samples.

Results

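VRN1, FUL2 and FUL3 are the wheat members of the SQUAMOSA clade of MADS-box transcription factors, and each is present as a homoeologue on the A, B and D subgenomes, which gives 9 genes of the 107891 in the expression files. They were taken by identifier. VRN1 comprises VRN-A1 (TraesCS5A02G391700, chromosome 5A), VRN-B1 (TraesCS5B02G396600, chromosome 5B) and VRN-D1 (TraesCS5D02G401500, chromosome 5D). FUL2 comprises FUL-A2 (TraesCS2A02G261200, chromosome 2A), FUL-B2 (TraesCS2B02G281000, chromosome 2B) and FUL-D2 (TraesCS2D02G262700, chromosome 2D). FUL3 comprises FUL-A3 (TraesCS2A02G174300, chromosome 2A), FUL-B3 (TraesCS2B02G200800, chromosome 2B) and FUL-D3 (TraesCS2D02G181400, chromosome 2D).

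VRN1 is the vernalization gene of wheat, which promotes the transition of the shoot apex from leaf production to spike formation and is also active in leaves. FUL2 and FUL3 are its closest paralogues. In wheat the proteins of all these genes act with overlapping roles in the identity of the spike and spikelet meristems, and plants that lack them form leafy shoots in place of spikelets. Homoeologues are the copies of one ancestral gene that the diploid progenitors brought into hexaploid wheat, and their coding sequences are close to identical.

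The study asked whether transposon-derived enhancer-like elements act in spike development, and knocked down the RNA of one such element of the RLG_famc7.3 family by RNA interference. Spikes at the booting stage were sequenced from 3 control plants (CK1 to CK3) and from 4 transgenic RNAi lines of the T0 generation (RNAi1 to RNAi4), each line a primary transformant. The labels give the cultivar Fielder with genotype WT for CK and RLG_7.3_enh_RNAi for RNAi, whereas the methods name the cultivar JW1, and the controls are called both wild type and negative control transgenic lines. The titles of these spike samples begin with cs, a prefix that the Chinese Spring samples also carry. Root from plants in Hoagland solution was harvested after 9 days of growth, and immature embryo was taken 14 days post anthesis. Both were of the cultivar Chinese Spring without a transgene and were each sequenced as 1 library. No source states that the CK libraries came from separate sowings, so the p-values measure the spread between these samples, which may be partly technical. A check of the labelled tissues against marker genes was not made, because the gene table used here does not name these identifiers.

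Spike levels were given as FPKM, which scales a gene's reads to its exon length and to the mapped reads of its library. The libraries held 3176975 to 11386497 reads as recovered from the FPKM values. CK2 stood apart, since 51.8% of its reads fell on genes, against 78.4% in CK1 and 86.2% to 87.5% in the other libraries, and its FPKM summed to 0.523 of the mean of CK1 and CK3. FPKM is scaled to all mapped reads, so a gene with the same share of the gene reads in CK2 as on average in CK1 and CK3 would show a ratio near 0.63, that of the percent on genes. The fold changes, sums and paired differences that CK2 moves most are given with and without it. In such bulk samples, fewer cells of a type and less RNA per cell cannot be told apart.

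All 9 genes were detected in every spike library, by between 54 reads (FUL-D3 in CK1) and 1020 reads (VRN-A1 in RNAi3). Averaged over the 7 libraries, the order of the levels in FPKM (mean ± SD, n = 7) ran from VRN-A1 at 56.7 ± 18.5 through FUL-B2 at 32.0 ± 7.94, FUL-A3 at 24.0 ± 4.47, VRN-B1 at 22.7 ± 7.12 and VRN-D1 at 18.9 ± 6.70 to FUL-A2 at 16.97 ± 5.47, FUL-B3 at 15.6 ± 2.36, FUL-D2 at 13.1 ± 2.37 and FUL-D3 at 13.0 ± 3.57. The mean ± SD of every pair of neighbours in this order overlapped. VRN-A1 lay above 96.6% to 98.7% of the genes with a value above 0 in its library, and the lowest position of any of the 9 was that of FUL-A2 in CK2, above 83.1%.

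**Figure D1:**
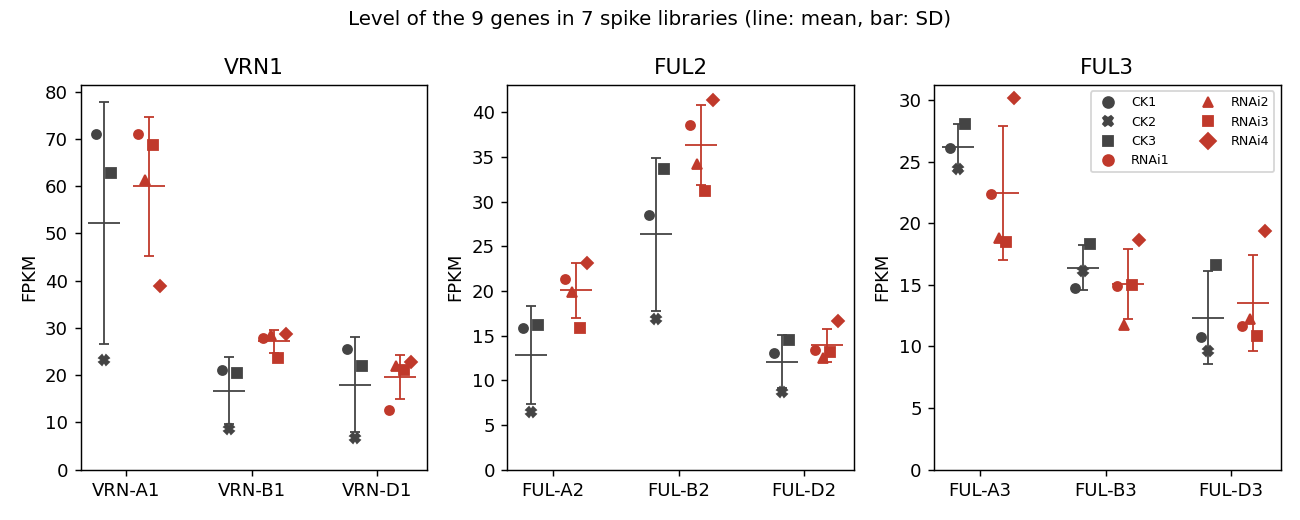
FPKM (vertical axes, each starting at 0) of the 9 genes in the 3 CK libraries (grey) and the 4 RNAi lines (red), with a symbol for each library, the group mean as a horizontal line and the SD as a bar. VRN-A1 has the highest mean in both groups, though FUL-A3 lies above it in CK2 and FUL-B2 in RNAi4, CK2 is the lowest library for the VRN1 and FUL2 genes, and RNAi4 is the lowest RNAi line for VRN-A1 and the highest for the FUL2 and FUL3 genes.

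Within VRN1, the A homoeologue was the most abundant in all 7 libraries. VRN-A1 was measured at 71.0, 23.1 and 62.8 FPKM in CK1 to CK3 and at 71.1, 61.3, 68.7 and 38.9 FPKM in RNAi1 to RNAi4. Its 2 low libraries were CK2 and RNAi4, one of each group, and the groups overlapped. VRN-B1 stood at 21.2, 8.54 and 20.5 FPKM in the CK libraries and at 27.8, 28.5, 23.6 and 28.6 FPKM in the RNAi lines. Here every RNAi line lay above every CK library, although the gap between RNAi3 and CK1 was small. VRN-D1 was found at 25.5, 6.70 and 21.9 FPKM in CK and at 12.7, 21.9, 21.1 and 22.7 FPKM in RNAi, with CK2 and RNAi1 low and the groups overlapping.

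Over the 7 libraries VRN-A1 exceeded VRN-B1 by 1.28 ± 0.42 on the log2(FPKM + 1) scale (mean ± SD), or 2.42-fold, and VRN-D1 by 1.54 ± 0.49, or 2.92-fold. Both differences had the same sign in 7 of 7 libraries (exact two-sided sign-flip permutation test, p = 0.0156, the smallest that 7 libraries allow, and 0.0234 after Benjamini-Hochberg adjustment over the 9 homoeologue pairs). VRN-B1 and VRN-D1 differed by 0.27 ± 0.43, with VRN-B1 higher in 5 of 7 libraries (exact permutation test, adjusted p = 0.125). In CK alone the mean of this last difference was -0.01 ± 0.29, and in the RNAi lines 0.48 ± 0.41 with VRN-B1 higher in 4 of 4.

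The share of VRN1 that came from the A homoeologue spanned a wider range among the RNAi lines than in CK. VRN-A1 made up 60.3%, 60.3% and 59.7% of the summed VRN1 FPKM in CK1 to CK3, and 63.7%, 54.8%, 60.6% and 43.1% in RNAi1 to RNAi4. CK2, where all the VRN1 genes were low, had an A share close to those of the other controls. Its read share was 60% (95% Wilson interval 55.2% to 64.7%), an interval wider than the spread of the CK shares. In reads, RNAi4 held 561 VRN-A1 reads among 1311 for VRN1, a share of 42.8% (95% Wilson interval 40.1% to 45.5%), below the interval of every other library, of which RNAi2 came nearest at 54.6% (52.0% to 57.1%). RNAi1 differed in another way, in that VRN-D1 gave 11.9% of its VRN1 reads (10.2% to 13.9%), against 18.3% (14.8% to 22.3%) in CK2, the next lowest library. These intervals cover counting error only, since reads that PCR copied are not independent molecules. Between the groups, the VRN-A1 share was 60.1% ± 0.346 (SD, n = 3) for CK against 55.6% ± 9.10 (SD, n = 4) for RNAi (exact two-sided permutation test, p = 0.60, adjusted p = 0.90 over 9 shares). The difference of -4.55 percentage points was -0.39 without RNAi4 and -7.27 without RNAi1. Whether the spread of the shares differed between the groups was not tested. The SD of the share was also larger in RNAi for VRN-B1, VRN-D1 and FUL-B3. For FUL-A2, FUL-B2, FUL-D2, FUL-A3 and FUL-D3 it was larger in CK.

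**Figure D2:**
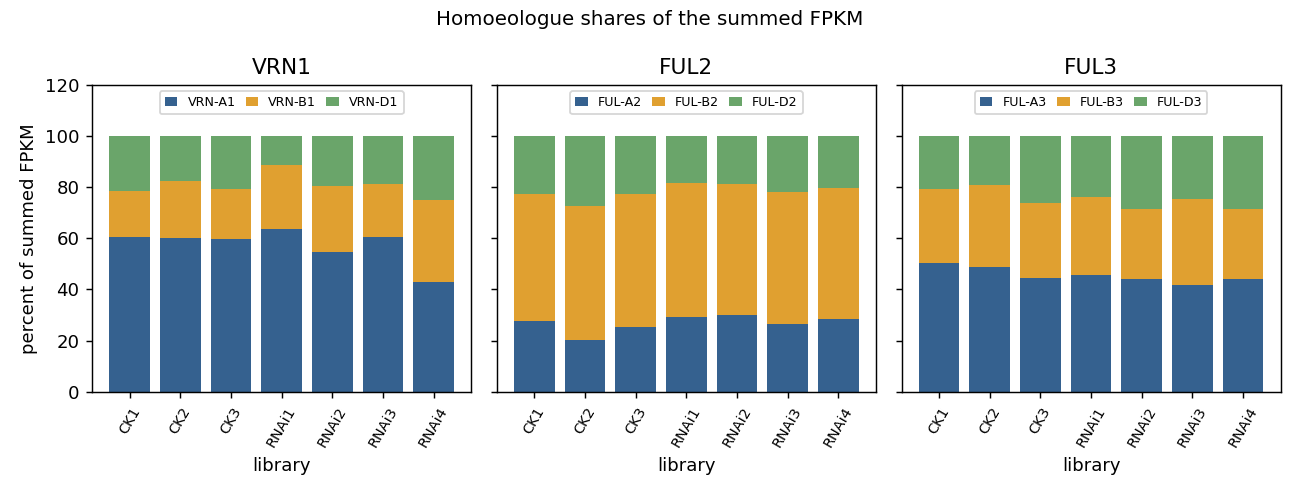
Percent of the summed FPKM of VRN1, FUL2 and FUL3 (vertical axis) given by each homoeologue in the 7 spike libraries (bars). The A homoeologue leads VRN1 and FUL3 and the B homoeologue leads FUL2 in every library, and the VRN-A1 share falls to 43.1% in RNAi4.

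Within FUL2 the B homoeologue had the highest FPKM in all 7 libraries, and this lead was smaller when gene length was left out. FUL-B2 stood at 28.6, 16.9 and 33.6 FPKM in CK1 to CK3 and at 38.5, 34.2, 31.2 and 41.3 FPKM in RNAi1 to RNAi4. FUL-A2 was measured at 15.8, 6.50 and 16.2 FPKM in CK and at 21.3, 19.9, 15.8 and 23.2 FPKM in RNAi. For FUL-D2 the values were 13.1, 8.73 and 14.5 FPKM in CK and 13.3, 12.5, 13.2 and 16.6 FPKM in RNAi. CK2 was the lowest library for each of the 3 genes and RNAi4 the highest, and the groups overlapped for each.

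FUL-B2 exceeded FUL-D2 by 1.20 ± 0.20 on the log2(FPKM + 1) scale, or 2.298-fold, and FUL-A2 lay below FUL-B2 by a log2 difference of -0.91 ± 0.17, in each case in all 7 libraries (exact permutation test, adjusted p = 0.0234 for both). The exon length that the FPKM values imply was 1146 bp for FUL-B2, 1891 bp for FUL-A2 and 2090 bp for FUL-D2. As RPM, which scales reads to the library's reads on genes and leaves out length, the FUL-B2 excess over FUL-D2 was 0.39 ± 0.19 on the log2 scale, or 1.31-fold, and the FUL-A2 difference from FUL-B2 was -0.23 ± 0.20. In CK1, for example, 95 reads fell on FUL-A2, 104 on FUL-B2 and 87 on FUL-D2. Both differences kept their sign in all 7 libraries in reads (exact permutation test, adjusted p = 0.0234). Whether the annotated lengths are those of the transcripts in these spikes was not tested. FUL-A2 and FUL-D2 differed by 0.29 ± 0.35, with FUL-A2 higher in 6 of 7 libraries (exact permutation test, adjusted p = 0.0879). Without CK2, where FUL-A2 stood below FUL-D2, that difference was 0.40 and passed the test (adjusted p = 0.0402, exact). In RPM over all 7 libraries it was 0.15 ± 0.37 and did not pass (exact permutation test, adjusted p = 0.334).

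Within FUL3 the A homoeologue led, and the FUL3 genes were less low in CK2 than those of VRN1, although FUL-D3 had its lowest value there. FUL-A3 was measured at 26.1, 24.4 and 28.1 FPKM in CK1 to CK3 and at 22.4, 18.8, 18.4 and 30.2 FPKM in RNAi1 to RNAi4. FUL-B3 stood at 14.8, 16.1 and 18.3 FPKM in CK and at 14.9, 11.8, 15.0 and 18.6 FPKM in RNAi, and FUL-D3 at 10.8, 9.61 and 16.6 FPKM in CK and at 11.6, 12.3, 10.9 and 19.3 FPKM in RNAi. RNAi4 was the highest library for each of the 3 genes, and the groups overlapped for each. FUL-A3 exceeded FUL-B3 by 0.58 ± 0.15 on the log2(FPKM + 1) scale (1.497-fold) and FUL-D3 by 0.85 ± 0.28 (1.81-fold), in 7 of 7 libraries (exact permutation test, adjusted p = 0.0234 for both). FUL-B3 and FUL-D3 differed by 0.27 ± 0.27, with FUL-B3 higher in 5 of 7 (exact permutation test, adjusted p = 0.0804). The implied lengths of the FUL3 genes were close, at 1400, 1450 and 1575 bp, and in RPM the log2 differences of FUL-A3 were 0.55 ± 0.15 and 0.71 ± 0.29.

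In all, 6 of 9 homoeologue pairs differed beyond the spread between libraries, and the same count held in RPM. CK alone and RNAi alone cannot pass the threshold, since the smallest exact p is 0.25 with 3 libraries and 0.125 with 4. Reads of homoeologues are alike, and the sources used here do not give how reads that fit several genes were treated, so part of a homoeologue's reads may be assigned to another one.

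**Figure D3:**
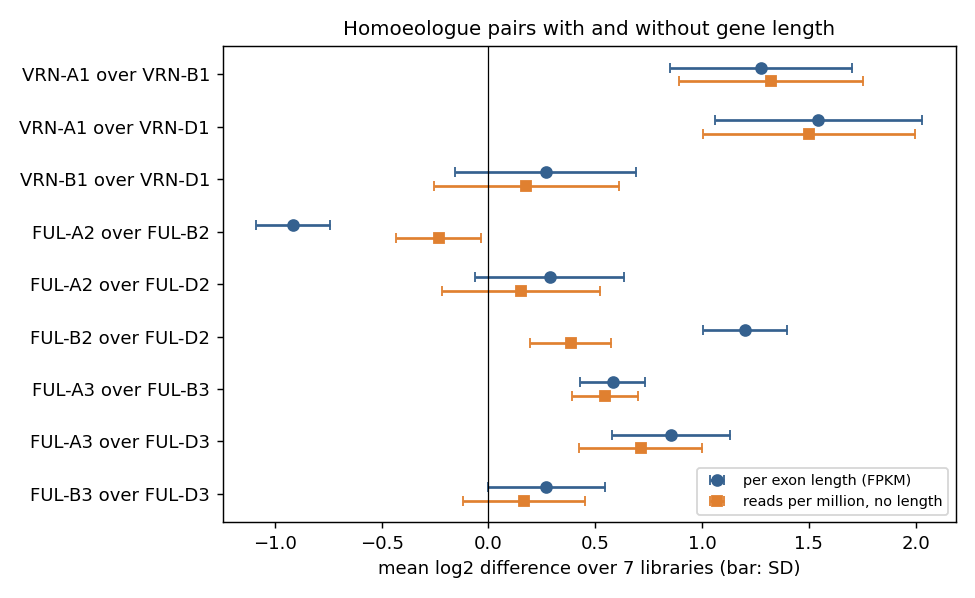
Mean log2 difference between homoeologues over the 7 spike libraries (horizontal axis, bars give the SD) in FPKM + 1 (blue circles) and in RPM + 1 without gene length (orange squares). The pairs with FUL-B2 move most between the scales, from 1.20 to 0.39 against FUL-D2 and from -0.91 to -0.23 for FUL-A2 over FUL-B2.

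Summed over homoeologues, VRN1 had the highest FPKM of the paralogues in every library but CK2. In reads, without gene length, FUL2 stood above VRN1 in RNAi4, at 1393 reads against 1311. The VRN1 sum was 117.6, 38.4 and 105 FPKM in CK1 to CK3 and 112, 112, 113 and 90.3 FPKM in RNAi1 to RNAi4. The FUL2 sum was 57.5, 32.1 and 64.3 FPKM in CK and 73.2, 66.6, 60.2 and 81.1 FPKM in RNAi. The FUL3 sum was 51.6, 50.1 and 63.1 FPKM in CK and 49.0, 42.8, 44.3 and 68.1 FPKM in RNAi. In CK2, FUL3 therefore stood above both VRN1 and FUL2, whereas in the other 6 libraries it was the lowest of the 3. RNAi4 had the lowest VRN1 sum and the highest FUL2 and FUL3 sums among the RNAi lines.

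VRN1 exceeded FUL2 by 0.62 ± 0.32 on the log2 scale of the sums (1.54-fold, in 7 of 7 libraries) and FUL3 by 0.83 ± 0.64 (1.78-fold, in 6 of 7). Both passed the exact two-sided sign-flip permutation test (p = 0.0156 and 0.0312, adjusted p = 0.0469 for both over 3 pairs). FUL2 and FUL3 differed by 0.21 ± 0.43 (exact permutation test, adjusted p = 0.234). In RPM the differences were 0.39 and 0.68, and neither passed (adjusted p = 0.0703 for both, exact). With any one library left out, VRN1 over FUL2 stayed between 0.56 and 0.70 and VRN1 over FUL3 between 0.74 and 1.03, but 6 libraries allow no exact p under 0.0312, so a lost call there says little. Without CK2 all 3 pairs passed (adjusted p = 0.0312, exact), with VRN1 over FUL3 at 1.03 and FUL2 over FUL3 at 0.34.

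The paralogues differed in how far they fell in CK2. The ratio of CK2 to the mean of CK1 and CK3 was 0.344 for the VRN1 sum, 0.527 for FUL2 and 0.873 for FUL3, beside 0.63 for the percent of reads on genes and 0.523 for the FPKM sum of all genes. The VRN1 genes lay at 0.346 (VRN-A1), 0.410 (VRN-B1) and 0.283 (VRN-D1), and the FUL3 genes at 0.8998 (FUL-A3), 0.972 (FUL-B3) and 0.701 (FUL-D3). With each library scaled to a common FPKM sum, CK1 to CK3 held 117, 69.3 and 94.7 FPKM of VRN1, 57.1, 58.0 and 57.9 of FUL2, and 51.3, 90.5 and 56.8 of FUL3. On that scale CK2 was the lowest of the 7 libraries for VRN1, near the other controls for FUL2 and the highest for FUL3. Scaled to the reads on genes instead, the ratio of CK2 to the mean of CK1 and CK3 was 0.544 for VRN1, 0.838 for FUL2 and 1.39 for FUL3. CK2 is a single library, and the part that its low share of gene reads plays in these ratios was not tested.

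The comparison of RNAi with CK called none of the 9 genes. Fitted with limma on log2(FPKM + 1) over 55551 genes, 0 of 9 were lower and 0 of 9 higher in RNAi at a Benjamini-Hochberg adjusted p under 0.05, where the background over all genes was 0.598% lower and 0.0306% higher. The methods' thresholds are a log2 fold change beyond 1 in either direction with p under 0.05 before adjustment. With limma they also called 0 of 9 in both directions, against 4.31% of all genes lower and 5.23% higher. DESeq2, the tool that the methods name, likewise gave 0 of 9 at these thresholds on recovered reads. Its background was 7975 genes lower and 3049 higher, of 82610. At an adjusted p under 0.05 on recovered reads, edgeR and DESeq2 also called 0 of 9, with backgrounds of 1.12% lower and 0.0114% higher for edgeR and 2.91% lower and 0.575% higher for DESeq2. None of the 9 had an unadjusted p under 0.05 with limma, edgeR or DESeq2. Over all genes tested, 8343 of 55551 had one with limma, 8463 of 52451 with edgeR and 12259 of 82610 with DESeq2. The median log2 fold change of the 9 genes was 0.27, beside 0.17 over all genes tested. VRN-B1 was the 1 gene of the 9 whose groups did not overlap, with all RNAi lines higher, as was seen for 10.8% of all genes, and 0 of 9 lay wholly lower, against 4.72% of all genes.

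VRN-B1 had the largest log2 fold change, 0.76 (SE 0.39, 95% interval -0.12 to 1.64, limma adjusted p = 0.375), with 16.7 ± 7.11 FPKM (SD, n = 3) for CK against 27.1 ± 2.41 FPKM (SD, n = 4) for RNAi. FUL-A2 followed at 0.69 (interval -0.18 to 1.57, adjusted p = 0.399), with 12.8 ± 5.49 FPKM in CK and 20.1 ± 3.12 FPKM in RNAi. The lowest was FUL-A3 at -0.24 (interval -0.999 to 0.52, adjusted p = 0.728), with 26.2 ± 1.86 FPKM in CK and 22.4 ± 5.44 FPKM in RNAi. With other scalings FUL-A3 moved to -0.59 (DESeq2, adjusted p = 0.376) and FUL-B3 from -0.13 to -0.51 (adjusted p = 0.483). The other 6 genes lay between -0.13 (FUL-B3) and 0.49 (FUL-B2), with adjusted p-values from 0.507 to 0.868. The upper ends of the intervals for VRN-A1 (1.43), VRN-D1 (1.35) and FUL-B2 (1.34) were also above a 2-fold rise, so a change of that size is within the range these libraries allow.

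Without CK2 the log2 fold changes of the VRN1 and FUL2 genes were lower. VRN-B1 was then at 0.36 (interval -0.14 to 0.87), FUL-A2 at 0.30 (-0.26 to 0.85), FUL-B2 at 0.21 (-0.34 to 0.77), VRN-A1 at -0.19 (-0.94 to 0.56) and VRN-D1 at -0.29 (-0.99 to 0.41), and the median of the 9 was -0.02, beside 0.03 over all genes. VRN-B1, FUL-A2 and FUL-B2 stayed above 0 in each of the 19 other fits, and FUL-A3 and FUL-B3 stayed below 0. The sign of VRN-A1, VRN-D1, FUL-D2 and FUL-D3 turned with the scaling or with the libraries used.

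**Figure D4:**
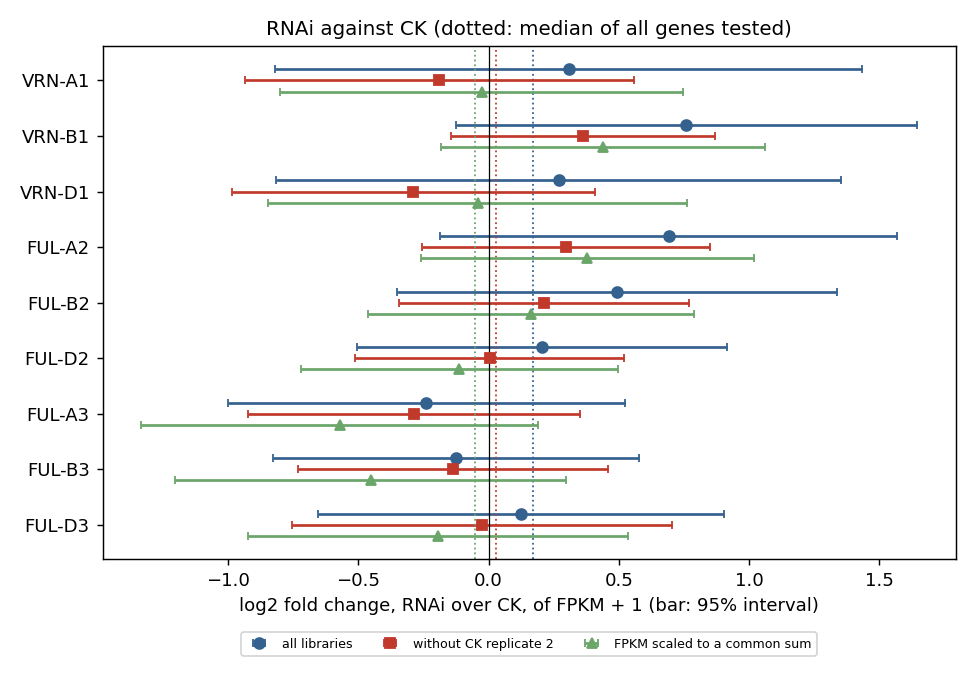
limma log2 fold change of RNAi over CK for the 9 genes (horizontal axis, on the scale of FPKM + 1), with 95% intervals, over all libraries (blue circles), without CK2 (red squares) and with FPKM scaled to a common sum (green triangles). Every interval includes 0, and the dotted lines give the median of all genes tested in each fit, 0.17, 0.03 and -0.05.

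VRN1 summed to 87.0 ± 42.6 FPKM (SD, n = 3) for CK against 107 ± 11.02 FPKM (SD, n = 4) for RNAi, a log2 difference of 0.44 (exact two-sided permutation test, p = 0.457, adjusted p = 0.543 over 3 sums), which was -0.06 without CK2. FUL2 gave 51.3 ± 16.95 FPKM in CK and 70.3 ± 8.95 FPKM in RNAi, a difference of 0.50 (exact p = 0.0571, adjusted p = 0.171), and 0.20 without CK2. FUL3 gave 54.9 ± 7.09 FPKM in CK and 51.0 ± 11.7 FPKM in RNAi, a difference of -0.12 (exact p = 0.543, adjusted p = 0.543), which was -0.18 without CK2 and -0.46 with FPKM scaled to a common sum (exact p = 0.143, adjusted p = 0.386). The 35 ways to split 7 libraries into 3 and 4 allow no exact p under 0.0286. None of the 9 homoeologue shares passed the test between the groups (lowest exact p = 0.0571, for FUL-D2 with 24.2% ± 2.60 in CK and 19.8% ± 1.69 in RNAi, adjusted p = 0.193), a difference of -4.34 percentage points that was -2.84 without CK2.

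In root and embryo the genes were at or near 0 reads. The root library held 20705861 reads on genes and the embryo library 33911272, more than any spike library. In root, 6 reads fell on VRN-B1, 3 on VRN-D1, 1 on FUL-A3 and 0 on the other 6 genes, a total of 10. In embryo, 2 reads fell on VRN-B1, 2 on FUL-D3, 1 on VRN-A1 and 0 on the other 6, a total of 5. No read fell on any FUL2 gene in either library. Of all genes, 28.6% had 0 reads in root and 32.1% in embryo. Up to 6 reads, the highest count of any of the 9, were found for 41.3% of all genes in root and 44.8% in embryo.

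As RPKM, here the reads scaled to exon length and to all reads on genes, VRN-B1 in root stood at 0.227 (exact 95% Poisson interval 0.0832 to 0.494), the highest value of the 9 genes in these 2 libraries. The same unit gave 22.4 ± 5.39 RPKM (SD, n = 3) for VRN-B1 in CK spike, a ratio to root of 98.9 (45.4 to 269, counting error of the root reads only). For VRN-A1, with 0 root reads, the CK spike mean of 69.3 was 624-fold the level that 3 reads in the root library would give. FUL-A2, FUL-B2 and FUL-D2 in CK spike were 224-fold, 285-fold and 242-fold the 3-read level in root. For the 3-read level in embryo the ratios were 367-fold, 466-fold and 397-fold. These ratios are not lower bounds, since the 95% Poisson interval for 0 reads reaches 3.69 reads. The tissues were compared without a test, since root and embryo had 1 library each. Their cultivar is not one that the labels or methods name for the spikes, so tissue, cultivar and library cannot be told apart.

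**Figure D5:**
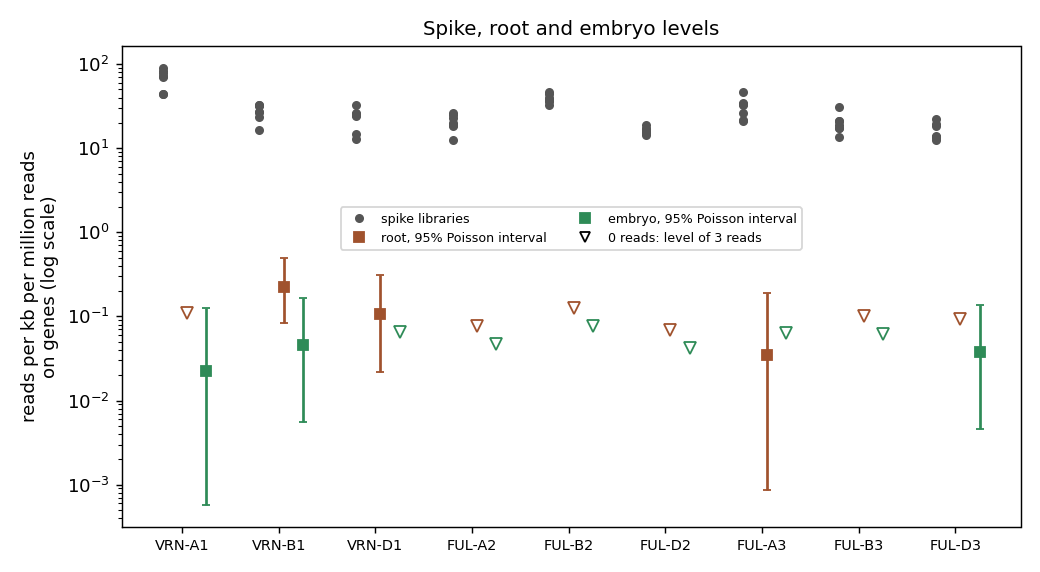
RPKM over the reads on genes (vertical axis, log scale) of the 9 genes in the 7 spike libraries (grey points), root (brown) and embryo (green), with exact 95% Poisson intervals for counts above 0. Open triangles stand at the level of 3 reads for genes with 0 reads, and the lowest spike value, 12.5 for FUL-A2 in CK2, lies above every root and embryo interval.

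By the order of the gene identifiers, the 5 genes on each side of every member were compared in the spike libraries, a description added after the levels were known. Around the FUL3 genes the neighbours' mean FPKM had a median of 0.160 (FUL-A3), 0.314 (FUL-B3) and 0.0132 (FUL-D3). Around the VRN1 genes this median was 3.60 to 4.71 and around the FUL2 genes 2.23 to 4.17. A mean of at least 1 FPKM was found for 3 of 10 neighbours at each FUL3 gene. At each VRN1 gene it was found for 6 to 8 and at each FUL2 gene for 6 or 7. Of all 107891 genes, 47413 reached this mean. The highest neighbour of a FUL3 gene had 36.3 FPKM, beside FUL-B3. None of the 10 neighbours had a higher mean than VRN-A1, FUL-A3 or FUL-D3, 1 had a higher mean than VRN-D1, and 2 had a higher mean than each of the other 5 members.

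Among 44672 other genes with a mean of at least 1 FPKM and a value above 0 in all 7 libraries, the profiles most like the VRN1 sum on the log2(FPKM + 1) scale were those of TraesCS2D02G102000 (Pearson's r = 0.998) and TraesCS5A02G025400 (r = 0.996). For FUL2 they were TraesCS2A02G437600 (r = 0.998) and TraesCS5B02G115000 (r = 0.997). For FUL3 they were TraesCS6B02G421700 (r = 0.988) and TraesCS7D02G290500 (r = 0.984). The first of these had low values, 0.0736 FPKM in RNAi2 and 0.503 in RNAi3, and was highest in CK3 (4.49) and RNAi4 (5.31). An r above 0.9 was found for 7.36% of these genes with VRN1 and 11.4% with FUL2, and for 0.293% with FUL3. The 7 points share their libraries and depth, CK2 is low for VRN1 and FUL2 as it is for the FPKM of all genes, and the correlations are a description.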

How the data were processed

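The authors trimmed reads with Trim Galore and cutadapt, aligned them with HISAT2, removed organelle and rRNA reads and counted reads on high-confidence IWGSC RefSeq genes with featureCounts. They deposited FPKM for the spike libraries and read counts for root and embryo, 1 sample to a file. Strand settings and the treatment of multiply mapped reads are not given in the sources used here.

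RNAi was compared with CK by limma 3.58.1 (mean-variance trend) on log2(FPKM + 1), keeping genes whose FPKM averaged 0.5 or more, with Benjamini-Hochberg adjustment over all genes kept. Reads and exon lengths were recovered from FPKM, as the length at which all 7 libraries gave whole reads (within 0.003 reads plus rounding), for 82610 of 82611 genes above 0. These went into edgeR 4.0.16 (quasi-likelihood), which called 591 genes, and DESeq2 1.42.0 as alternatives, which called 2875. For RNAi against CK, data were also simulated on 55551 genes. There limma recovered 0% of genes changed 2-fold, 4% changed 4-fold, 46% changed 8-fold and 80% changed 16-fold. In the same order, edgeR recovered 0%, 8%, 46% and 84%, and DESeq2 6%, 38%, 88% and 100%. Of unchanged genes, limma called 0.00542%, edgeR 0.00784% and DESeq2 0.157%. A gene that was not called can therefore still differ. The rates were not worked out for genes at the levels of VRN1, FUL2 and FUL3, so they are not the power for these genes.

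Homoeologue and paralogue differences were tested by exact sign flips over the 7 libraries, and shares and sums by exact permutation of 3 against 4. Samples were grouped by their labels. The named genes are the 9 members and, for each paralogue, the 2 other genes with the most similar spike profile. The members and lists were chosen with earlier results of these data known. The gene table used here (RefSeq) carries none of the files' identifiers, so no list of other pathway genes, no positions and no sequences are given. The capped-transcript tags and chromatin peaks of the series were not analysed here. Other settings were other pseudocounts, filters, scalings, array weights, a replicate block, reads without length, each group alone and each library left out. Scaling to a common sum and reads without length were added after the data were seen.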

Additional observations from a re-analysis of the deposited data

Results flagged for a closer look

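Among 21 values tested in the 4 RNAi lines (the FPKM of each gene, the 3 sums and the 9 shares), 4 had 1 line far from the other 3, with a gap to the nearest line that, as a part of the range, passed Dixon's 95% critical value. Chance flags about 5% of such groups, and the 21 values are not independent of each other. The summed VRN1 level of RNAi4 was 90.3 FPKM against 112 in the nearest line. VRN-D1 in RNAi1 was 12.7 FPKM against 21.1 in the nearest line, and its share of VRN1 there was 11.3%. FUL-D3 in RNAi4 was high, at 19.3 FPKM against 12.3. VRN-B1 in RNAi3 was low among the lines, at 23.6 FPKM against 27.8, and still above every CK library.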

How the results depend on the processing

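The count of genes called in RNAi against CK was 0 of 9 in either direction in all 19 alternative fits, at the adjusted threshold and at the methods' thresholds. Over all genes tested, the methods' thresholds called from 1667 of 54728 (without CK1) to 7975 of 82610 (DESeq2) lower. They called from 816 of 55811 (without CK2) to 6242 of 54979 (without CK3) higher. All these fits draw on the same 7 libraries, so they are not independent. The log2 fold change changed sign for 4 genes. VRN-A1 (0.31) became -0.15 with quantile normalization, -0.079 with array weights, -0.0053 with edgeR and -0.027 with FPKM scaled to a common sum. VRN-D1 (0.27) became -0.39 with array weights, -0.059 with edgeR, -0.046 with DESeq2 and -0.042 with the common sum. FUL-D2 (0.21) became -0.0050 with quantile normalization, -0.092 with edgeR, -0.10 with DESeq2 and -0.11 with the common sum. FUL-D3 (0.12) became -0.083 with quantile normalization, -0.00057 with median centring, -0.18 with edgeR, -0.19 with DESeq2 and -0.19 with the common sum. Leaving out each library in turn gave -0.19 to 0.60 for VRN-A1, -0.29 to 0.60 for VRN-D1, 0.0043 to 0.34 for FUL-D2 and -0.050 to 0.34 for FUL-D3, the lowest without CK2 except for FUL-D3, where it was without RNAi4. FUL-A3 (-0.24) lay at -0.59, -0.57, -0.59 and -0.57 with quantile normalization, edgeR, DESeq2 and the common sum, and FUL-B3 (-0.13) at -0.39, -0.48, -0.51 and -0.45. The FUL3 sum (-0.12) was -0.43 with quantile normalization, -0.46 with the common sum and -0.27 to -0.019 with a library left out. The median of the genes tested moved from 0.17 to 0.06 with quantile normalization, -0.05 with edgeR and the common sum, and -0.22 with DESeq2. These medians cover unlike sets, 55551 genes with limma, 52451 with edgeR and 82610 with DESeq2. The causes of the moves were not tested. Over the genes tested in each fit limma called 349, against 538 with quantile normalization, 585 with a replicate block, 591 with edgeR, 611 with the common sum, 656 with median centring, 2875 with DESeq2 and 13601 with array weights, and 173 to 773 with a library left out.

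The replicate numbers did not pair the libraries (correlations of deviations -0.08, -0.05 and 0.09). A fit with a replicate block, in which RNAi4 has no partner, called 0 of 9 and gave -0.050 for FUL-D3. Homoeologue pairs that differed numbered 0 in CK alone and 0 in RNAi alone, where the smallest exact p is too high, and 6 to 7 with a library left out. Paralogue pairs that differed numbered 2, and 0 in CK alone, 0 in RNAi alone, 0 in RPM, 1 with the mean of the 3 log2 values, and 0 to 3 with a library left out, where no exact p can fall under 0.0312 and VRN1 over FUL2 stayed at 0.56 to 0.70. In CK alone VRN-B1 over VRN-D1 was -0.012 and FUL2 over FUL3 -0.15. With a library left out, the RNAi minus CK difference in share ran from -3.43 to 1.18 percentage points for VRN-D1, -7.27 to -0.39 for VRN-A1, -0.75 to 0.70 for FUL-B2 and -1.49 to 0.95 for FUL-B3, and the log2 difference of the VRN1 sum from -0.064 to 0.73. CK1, with 54 to 294 reads for each member, was the shallowest library.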
